A study of Mus musculus with 6 samples.

Results

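The genes described here are 10 neuropeptide genes, namely Sst, Npy, Penk, Cck, Tac1, Vip, Cartpt, Pdyn, Adcyap1 and Scg2. They were taken by symbol from a table of 24762 gene features, and all 10 had a row of their own that named no other gene. Levels were measured by MACE, a 3'-end method in which each transcript contributes 1 tag, so that levels of different genes can be compared directly. Cerebellum, hippocampus and liver of C57BL/6 mice gave 6 libraries of polyadenylated RNA, 1 per tissue and genotype, and each library pooled 3 animals aged 6 months. The mice were homozygous knockouts of Atxn2 (Atxn2-KO, KO), which encodes the RNA-binding protein ataxin-2, or wild type (WT). The sources used here do not say which part of Atxn2 is deleted. The protocol text of the labels names midbrain and other ages, and the labels of the single samples were followed.

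Neuropeptides are made as precursor proteins, cut into short peptides inside dense-core vesicles and released by neurons to act on G-protein-coupled receptors of other cells. In the hippocampus, Sst (somatostatin), Npy (neuropeptide Y), Vip (vasoactive intestinal peptide) and Cck (cholecystokinin) are textbook labels of different classes of inhibitory interneurons, and Cck is also made by excitatory neurons. Penk and Pdyn encode the opioid precursors proenkephalin and prodynorphin, Tac1 the precursor of substance P, Adcyap1 the peptide PACAP, Cartpt the CART peptides, and Scg2 secretogranin II, a granin of the dense-core vesicle. Several of these genes are known targets of CREB, a transcription factor that binds the cyclic AMP response element (CRE) in response to neuronal activity.

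The 250 bases before the transcription start were available from RefSeq (GRCm38.p6) for 9 members, and Penk had no entry. On either strand, the complete CRE, TGACGTCA, occurred before the start of 3 of the 9, against 1.77% of 27025 genes in the same table. The shorter form TGACG, which lies within the complete CRE, occurred in 7 of the 9, against 19.8% of all genes. TATAAA, the core of the TATA box, occurred in 2 of the 9, Adcyap1 and Vip, against 14.3%. The 3 promoters with the complete CRE are shown because somatostatin is the textbook CRE gene and because Scg2 and Cartpt carry the same letters. The Npy promoter, in which neither CRE form was found, is shown beside them because Npy is the member whose genotype ratio had a counting interval below 0 in one brain tissue and above 0 in the other. Each runs 5′ to 3′ on the gene's own strand up to the base before the start, and capitals mark the CRE, which begins at position -48 in Sst, -68 in Scg2 and -112 in Cartpt, counted from -1 at the base before the start.
Sst, chr16:23890845-23891094, minus strand: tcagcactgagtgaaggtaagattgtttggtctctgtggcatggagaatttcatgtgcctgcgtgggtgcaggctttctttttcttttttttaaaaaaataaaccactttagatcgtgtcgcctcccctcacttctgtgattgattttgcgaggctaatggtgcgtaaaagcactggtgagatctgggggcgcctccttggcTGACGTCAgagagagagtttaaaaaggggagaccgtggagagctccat
Scg2, chr1:79440027-79440276, minus strand: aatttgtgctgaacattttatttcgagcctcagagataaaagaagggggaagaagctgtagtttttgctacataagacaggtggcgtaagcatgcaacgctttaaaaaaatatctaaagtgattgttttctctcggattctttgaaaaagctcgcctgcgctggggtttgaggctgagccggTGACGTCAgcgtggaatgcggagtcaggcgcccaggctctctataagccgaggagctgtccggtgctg
Cartpt, chr13:99900684-99900933, minus strand: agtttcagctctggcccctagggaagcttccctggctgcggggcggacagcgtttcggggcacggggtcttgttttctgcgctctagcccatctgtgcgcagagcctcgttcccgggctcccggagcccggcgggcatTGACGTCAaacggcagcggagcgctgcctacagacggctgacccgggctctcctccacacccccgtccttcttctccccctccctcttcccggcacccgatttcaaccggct
Npy, chr6:49822460-49822709, plus strand: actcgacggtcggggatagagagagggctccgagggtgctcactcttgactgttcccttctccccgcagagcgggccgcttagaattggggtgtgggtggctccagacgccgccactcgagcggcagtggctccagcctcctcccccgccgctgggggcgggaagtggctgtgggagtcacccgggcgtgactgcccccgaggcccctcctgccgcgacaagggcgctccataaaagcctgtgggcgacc
These matches are a description of letters. They are neither evidence of binding nor an account of the levels below.

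The libraries held 1774523 to 2727523 gene tags. Atxn2 checked the labels, with 0, 1 and 2 tags in the knockout cerebellum, hippocampus and liver against 167, 194 and 115 in wild type. Xist, which is transcribed from the inactive X chromosome, had no tag in any knockout library and 34 to 87 tags in each wild-type library, whereas the Y-linked gene Ddx3y had 81 to 176 tags in each of the 6 libraries. The wild-type pools thus held tags of both genes and the knockout pools of Ddx3y alone, and this difference and genotype cannot be told apart in any comparison of genotypes below. Markers of hippocampal excitatory neurons summed to 2096 (KO) and 2232 (WT) CPM in hippocampus against 272 to 279 in cerebellum, and granule neuron markers to 2319 to 2397 CPM in cerebellum against 108 to 112 in hippocampus, as labelled. CPM here is the gene tag count scaled to a common library size after TMM scaling.

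The members differed widely in abundance, and hippocampus was the richest source. Their tags summed to 4338 in knockout and 3714 in wild-type hippocampus, which was 0.186% and 0.174% of gene tags. In cerebellum they summed to 1393 and 1375 tags, or 0.0610% and 0.0583%. In liver only 22 and 43 tags were counted, or 0.00124% and 0.00158%. After TMM scaling, the hippocampus held 3.23 times (WT) and 3.35 times (KO) the summed level of cerebellum. Cck alone supplied 54.4% (KO) and 59.8% (WT) of the members' tags in hippocampus and 27.9% and 29.2% in cerebellum.

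**Figure D1:**
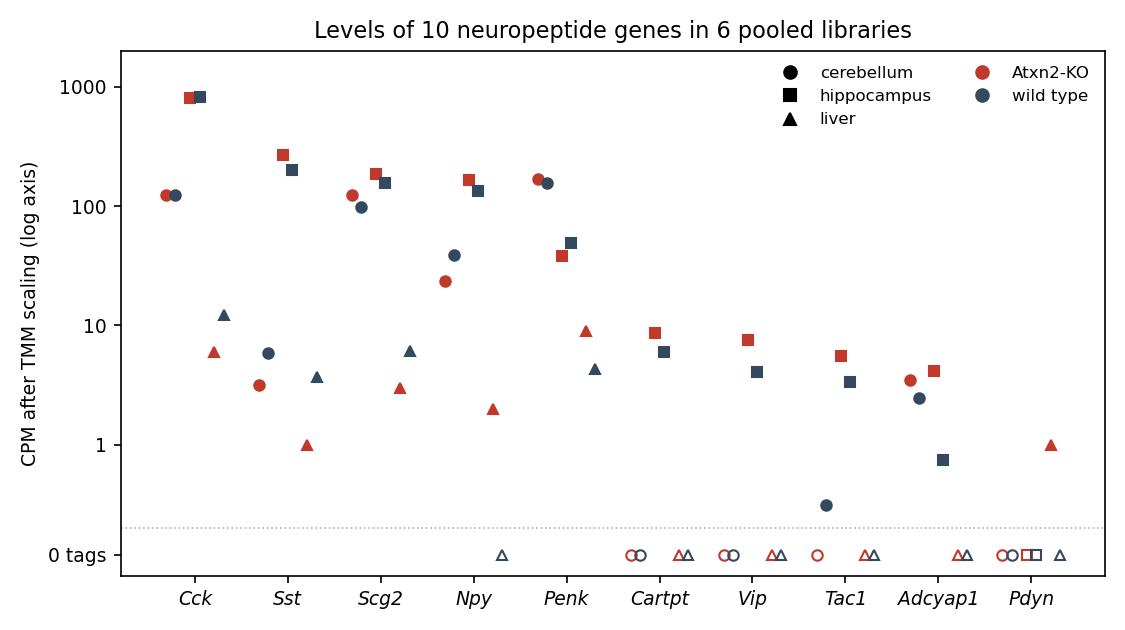
Level of each member in the 6 pooled libraries, as CPM after TMM scaling on a log axis. Circles are cerebellum, squares hippocampus and triangles liver, red is Atxn2-KO and dark grey wild type, and open symbols on the bottom line had 0 tags. Cck in hippocampus is the highest point at 810 and 825 CPM, Penk is the member whose cerebellar points lie above its hippocampal points in both genotypes, and Pdyn has a single tag in all.

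Of the interneuron peptides, Sst showed a steep tissue difference. Its hippocampal libraries held 774 (KO) and 544 (WT) tags, those of cerebellum 10 and 19, and those of liver 1 and 6. Both hippocampal libraries lay far above the other 4. Between hippocampus and cerebellum the level was 34.2-fold higher in wild type and 83.3-fold higher in knockout. Fitted over all 6 libraries, the log2 difference was 5.65 ± 0.27 (SE), with adjusted p = 3.63e-13 by edgeR's quasi-likelihood test.

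Npy, the peptide of neurogliaform and other interneurons, had 480 (KO) and 359 (WT) tags in hippocampus, 74 and 126 in cerebellum, and 2 and 0 in liver. The hippocampal pools were again the highest, with no overlap with cerebellum. The fitted log2 difference between hippocampus and cerebellum was 2.25 ± 0.22 (SE; edgeR adjusted p = 4.29e-08). Within wild type alone the ratio was 3.41-fold, and within knockout 6.98-fold.

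Cck, the most abundant member, had 2361 (KO) and 2222 (WT) tags in hippocampus, 388 and 402 in cerebellum, and 6 and 20 in liver. Its tissue ratio was nearly equal in the genotypes, 6.61-fold in wild type and 6.55-fold in knockout. The fitted log2 difference was 2.71 ± 0.20 (SE; edgeR adjusted p = 5.66e-10).

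Vip was detected in hippocampus alone, with 22 (KO) and 11 (WT) tags. Cartpt had the same pattern, with 25 and 16 tags. Neither gave a tag in cerebellum or liver, where 3 tags, taken as the limit that a count of 0 allows, would stand for 0.932 to 0.956 CPM in cerebellum and 1.84 to 2.97 CPM in liver. Against that limit in cerebellum, the hippocampal count of Vip was 4.38-fold higher in wild type and 7.90-fold higher in knockout, and that of Cartpt 6.37-fold and 8.97-fold. These folds leave out the counting error of the hippocampal tags. The exact 95% intervals of the log2 ratio began at 1.585 (WT) and 2.560 (KO) for Vip and at 2.204 and 2.760 for Cartpt. Both were called by edgeR (adjusted p = 8.34e-05 for Vip and 2.17e-05 for Cartpt), but they entered the fit through hippocampus alone, which fixes the direction, so these calls add nothing to the tag counts. Tac1 was as scarce, with 16 (KO) and 9 (WT) tags in hippocampus, 0 and 1 in cerebellum and 0 in both liver libraries, and did not pass the filter on low counts.

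Penk ran the other way. The cerebellar libraries held 524 (KO) and 506 (WT) tags, the hippocampal ones 112 and 132, and those of liver 9 and 7. Both cerebellar pools were above both hippocampal pools, by 3.21-fold in wild type and 4.35-fold in knockout, and Penk was the most abundant member in cerebellum. The fitted log2 difference, hippocampus minus cerebellum, was -1.90 ± 0.19 (SE; edgeR adjusted p = 4.46e-08). Enkephalin is known from Golgi cells, inhibitory interneurons of the cerebellar granular layer. The other opioid precursor, Pdyn, had 0 tags in all 4 brain libraries and 1 in knockout liver, so its level could not be compared at this depth.

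Scg2 had 536 (KO) and 419 (WT) tags in hippocampus, 386 and 313 in cerebellum, and 3 and 10 in liver. The log2 ratio of hippocampus to cerebellum was 0.68 in wild type and 0.58 in knockout. The fitted log2 difference was 0.62 ± 0.17 (SE; edgeR adjusted p = 0.00644). Adcyap1 had 12 (KO) and 2 (WT) tags in hippocampus, 11 and 8 in cerebellum and none in liver, and its brain tissues overlapped (log2 difference -0.32 ± 0.61 SE; edgeR adjusted p = 0.741).

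In all, 8 members were tested between the brain tissues. Of these, 6 were higher in hippocampus, where 15.8% of 12905 genes were called higher, and 1 was lower, where 13.5% were called lower. Without Vip and Cartpt, which passed the filter on low counts through hippocampus alone, 4 of 6 were higher and 1 was lower. Under DESeq2's own test 4 were higher and 1 lower, with Vip (adjusted p = 0.458) and Scg2 (adjusted p = 0.245) no longer called. These p-values set the tissue difference against the agreement of 2 pooled libraries per tissue, not against the spread between animals. In bulk tissue, fewer cells of a type and less RNA per cell cannot be told apart.

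**Figure D2:**
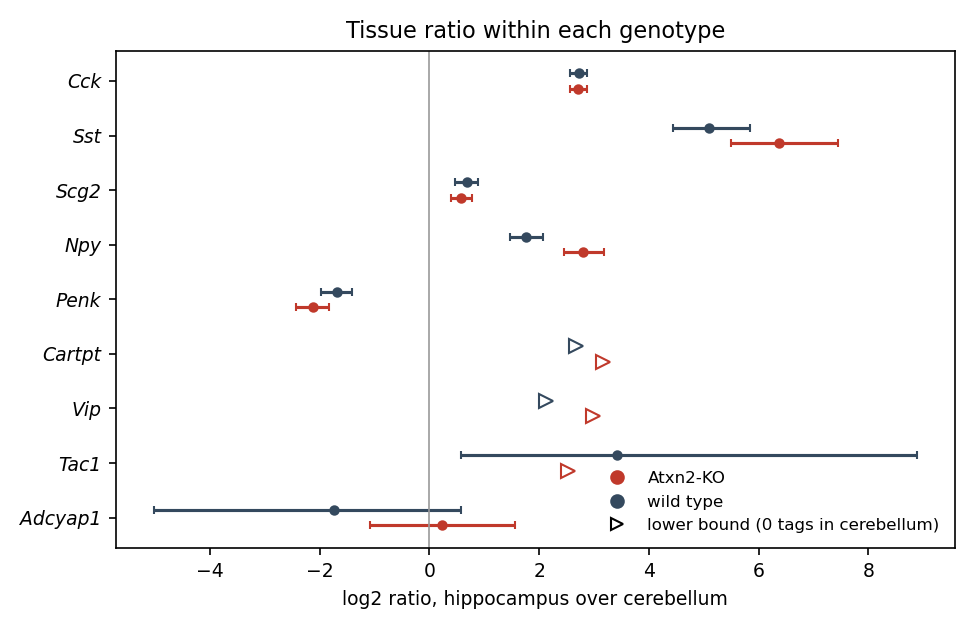
Ratio of hippocampus to cerebellum for each member within wild type (dark grey) and within Atxn2-KO (red), on a log2 scale, with 95% counting intervals. Open triangles are lower bounds against 3 tags where the cerebellum had none, drawn without the counting error of the hippocampal tags. Penk lies left of 0 in both genotypes, and the 2 intervals of Npy, around 1.77 in wild type and 2.80 in knockout, do not overlap.

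The order of the members also differed between tissues. In both hippocampal libraries it was Cck, Sst, Scg2, Npy and Penk, with Cartpt, Vip, Tac1 and Adcyap1 below 10 CPM. In cerebellum Penk came first at 167 (KO) and 157 (WT) CPM, followed by Cck at 124 and 125, Scg2 at 123 and 97.2, Npy at 23.6 and 39.2, and Sst at 3.19 and 5.90. Cck and Scg2 differed by 388 against 386 tags in knockout cerebellum, so their order there is not resolved.

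Against liver, 8 members were tested and 6 were called higher in brain (edgeR, mean of the brain tissues minus liver). Of all genes tested, 36.4% were called higher. All 8 members passed the filter on low counts through brain, with at most 20 tags in a liver library. That fixes the direction, so the count adds nothing to the tags. The log2 differences were 6.32 ± 0.54 (SE) for Npy, 4.95 ± 0.28 for Cck, 4.66 ± 0.29 for Scg2, 3.68 ± 0.30 for Penk and 3.50 ± 0.47 for Sst, each with an adjusted p of 7.55e-07 or less. For Sst only hippocampus stood clearly above liver. Its log2 ratio of cerebellum to liver was 0.68 (-0.70 to 2.29) in wild type and 1.69 (-1.13 to 7.13) in knockout. Adcyap1 was the other member called (adjusted p = 0.0145). It had no liver tag, so its difference is known only as a bound, at least 1.39-fold in knockout hippocampus and at least 1.18-fold (KO) and 1.35-fold (WT) in cerebellum, and the counting intervals of these bounds reach below equality. Vip and Cartpt entered the fit but gave no usable estimate, having no tag in cerebellum or liver. TMM scaling raises liver levels against levels scaled to the plain sum of gene tags: Cck in wild-type liver was 12.3 CPM with it and 7.33 without, while in wild-type hippocampus it was 825 CPM and 1039.

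Genes whose profile over the 6 libraries was nearest to a member were found by the distance between centred log2(CPM + 1) profiles among 11371 genes. For Sst they were Islr2, Cpne4 and Gabra5 (distances 0.66 to 0.93), for Cck Fam131a, Lin7b and Psd (0.50 to 0.64), and for Scg2 Kbtbd11, Lrrn3 and Tro (0.25 to 0.42). Penk was nearest to Paqr6, Kcnip1 and Tmem145 (0.28 to 0.62), and Npy to Caly, 2610017I09Rik and the joint feature Npcd/Nptxr (0.91 to 1.04). Only members of at least 10 CPM in some library were compared, so Tac1, Vip, Cartpt, Pdyn and Adcyap1 were left out. No compared member was among the 3 nearest genes of another. The closest pair of the compared members was Npy and Cck, at a distance of 1.94.

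The question of the knockout was addressed first within each tissue, where 1 pooled library per genotype allows no test and the exact 95% intervals cover counting error only. In cerebellum Npy was lower in the knockout library and Scg2 higher. In hippocampus Sst, Npy and Scg2 were higher in the knockout library, and Cck, the most abundant, was level. All these differences were below 2-fold. Adcyap1 was also higher in hippocampus, from very few tags.

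Npy stood at 74 tags in knockout and 126 in wild-type cerebellum, or 23.6 and 39.2 CPM. The log2 ratio of knockout to wild type was -0.73 (interval -1.17 to -0.31). In hippocampus Npy stood at 165 and 133 CPM, a log2 ratio of 0.31 (0.11 to 0.51). The ratio was thus below 0 in one brain tissue and above 0 in the other, and no test of that difference could be made with 1 library for each tissue and genotype.

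Sst was 266 CPM in knockout and 202 CPM in wild-type hippocampus, a log2 ratio of 0.40 (0.24 to 0.56). Its cerebellar ratio, from 10 and 19 tags, was -0.89 with an interval that includes 0 (-2.16 to 0.29). Scg2 was the member with the same sign and an interval above 0 in both brain tissues. Its log2 ratio was 0.34 (0.12 to 0.56) in cerebellum, at 123 against 97.2 CPM, and 0.24 (0.05 to 0.43) in hippocampus, at 184 against 156 CPM.

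Cck differed by less than its counting error in both brain tissues, with log2 ratios of -0.02 (-0.22 to 0.19) in cerebellum and -0.03 (-0.11 to 0.06) in hippocampus. Penk had ratios of 0.09 (-0.09 to 0.27) in cerebellum and -0.35 (-0.73 to 0.02) in hippocampus. With DESeq2 size factors the upper bound of the latter became -0.01.

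For the scarce members in hippocampus the counts bound little. The log2 ratio was 0.89 (-0.22 to 2.08) for Vip, 0.72 (-0.55 to 2.08) for Tac1 and 0.53 (-0.43 to 1.53) for Cartpt, each interval including 0. Adcyap1, with 12 against 2 tags, had a ratio of 2.47 (0.30 to 5.67). In cerebellum its 11 and 8 tags gave 0.50 (-0.95 to 2.01).

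Among features with a mean of at least 10 CPM, the cerebellum held 4 members, of which 1 had an interval above 0, where 6.46% of all features had, and 1 below, where 8.62% had. The hippocampus held 5, of which 3 had an interval above 0, against 12.1% of all features, and 0 below, against 10.8%. Their median log2 ratio was 0.24 in hippocampus and 0.04 in cerebellum, against 0.01 and -0.02 over all features. No member met the size rule (at least 10 CPM on average, an interval that excludes 0 and a log2 ratio of 1 or more in either direction), which 0.462% of features met in cerebellum and 1.58% in hippocampus. In liver no member reached a mean of 10 CPM. For Sst, Penk, Cck and Scg2, the members with more than 3 tags in a liver library, each interval included 0.

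**Figure D3:**
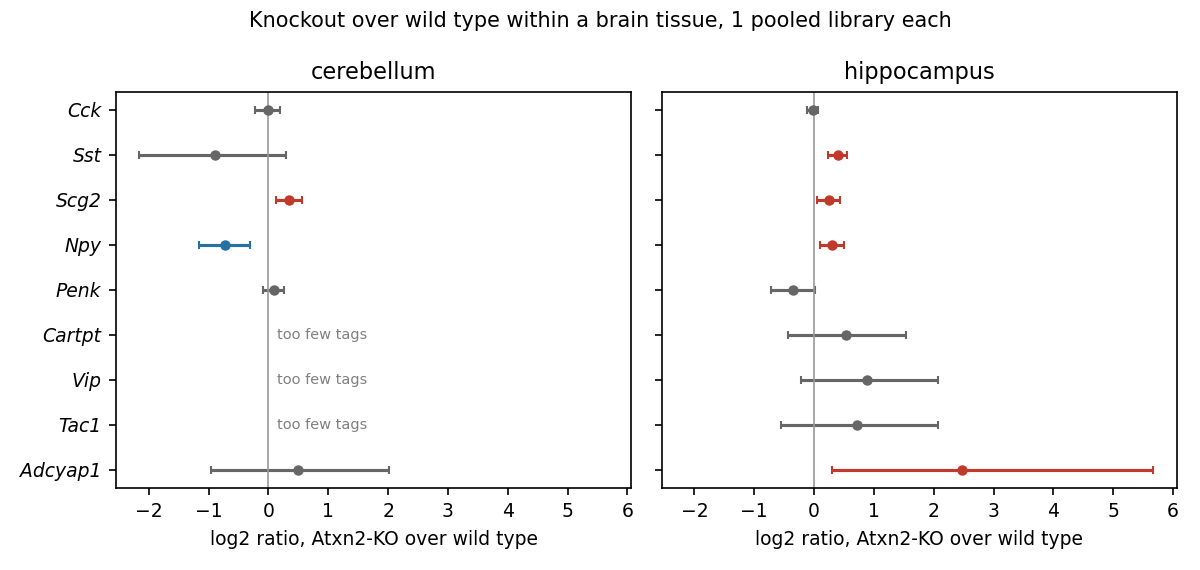
Ratio of Atxn2-KO to wild type for 9 members in cerebellum (left) and hippocampus (right), on a log2 scale, with exact 95% counting intervals from 1 pooled library per genotype. Red intervals lie above 0, blue below, and grey include 0. Npy is blue at -0.73 in cerebellum and red at 0.31 in hippocampus, and Scg2 is red in both.

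Across tissues, the genotype difference was tested with tissue as a block. The titles number the pooled animals 1, 2 and 3 whatever the tissue. A genotype's tissues may therefore come from the same animals, and the p-values measure agreement between tissues of such pools and not replication over animals. Over the 3 tissues, 5 members were tested and 0 were called (edgeR), where 0.0967% of 11377 genes were called. None of the 5 had an unadjusted p under 0.05 by edgeR or by DESeq2. Over the brain tissues alone, 8 members were tested and 0 were called, where 0.914% of 12035 genes were called, 18 higher and 92 lower (3 and 65 with DESeq2 size factors). At an unadjusted p under 0.05 there were 2 by edgeR, Scg2 and Adcyap1, and 0 by DESeq2. Scg2 had a log2 difference of 0.29 ± 0.14 (SE; edgeR adjusted p = 0.607) and Adcyap1 of 1.18 ± 0.55 (adjusted p = 0.614). Npy, with its opposite ratios, came to -0.06 ± 0.17 (adjusted p = 0.989), and Sst to 0.25 ± 0.18 (adjusted p = 0.859).

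Genes of the wider peptide system were read from lists chosen by function. Of 52 other peptide precursors, 41 were in the table and 14 were tested between the brain tissues. Of these, 7 were higher in hippocampus and 0 lower, against 15.8% and 13.5% of all genes. Without Cort, which had no tag outside hippocampus, 6 of 13 were higher. These 6, Grp, Tac2, Crh, Nts, Nmb and Pnoc, also passed the filter on low counts through hippocampus, with at most 11 tags in a cerebellar library. Neither count is therefore support for a direction beyond the tags. Cort, which encodes cortistatin, a relative of somatostatin, had 55 (KO) and 31 (WT) tags in hippocampus and none elsewhere, and Grp, gastrin-releasing peptide, 37 and 42 tags against 1 and 0 in cerebellum. The genotype ratio of Cort in hippocampus was 0.71 (0.05 to 1.40), on the same side of 0 as that of Sst. Igf1, a growth factor made mainly by liver, was on the other side at -0.99 (-1.76 to -0.26). Hepatocyte markers moved the same way in these libraries, with Alb at 458 (KO) and 2465 (WT) tags. In liver Igf1 stood at 1357 (KO) and 1753 (WT) CPM. Their part in the Igf1 ratio was not tested. No precursor was called for genotype in brain (edgeR, 1 at an unadjusted p under 0.05).

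Receptors of the members' peptides were also compared between the brain tissues. Of 23 listed, 17 were in the table and 9 were tested, and 8 were higher in hippocampus and 1, Vipr2, lower, against 15.8% and 13.5% of all genes. Without Npy2r and Npy5r, which had no cerebellar tag, 6 of 7 were higher. Sstr1, with 4 (KO) and 2 (WT) cerebellar tags, and Npy1r, with 11 and 6, also passed the filter on low counts through hippocampus. Vipr2, with 1 and 5 hippocampal tags, passed it through cerebellum. For these genes the calls add nothing to the tags. Npy2r, the presynaptic receptor of neuropeptide Y, had 66 (KO) and 33 (WT) tags in hippocampus and none in cerebellum or liver. Its genotype ratio there was 0.89 (0.26 to 1.54). Npy1r did not share this, with 58 and 65 tags and a ratio of -0.28 (-0.82 to 0.26).

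Adcyap1r1, which encodes the PACAP receptor, was the most abundant receptor in brain, with 319 (KO) and 179 (WT) tags in hippocampus and 178 and 162 in cerebellum. Its genotype ratio was 0.72 (0.45 to 0.99) in hippocampus and 0.17 (-0.14 to 0.49) in cerebellum. It was not called across the brain tissues (log2 difference 0.47 ± 0.16 SE; edgeR adjusted p = 0.229). The next most abundant receptors, Sstr3 and Oprl1, had hippocampal ratios of 0.02 (-0.50 to 0.53) and -0.09 (-0.60 to 0.42). No receptor was called for genotype (2 at an unadjusted p under 0.05).

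Among vesicle and processing genes, a few were far more abundant than the members. Of 7 other granins and related vesicle proteins, Pcsk1n, an inhibitor of prohormone cleavage, had 6090 (KO) and 5200 (WT) tags in hippocampus and 4541 and 4644 in cerebellum. Between the brain tissues 1 of the 7, Vgf, was higher in hippocampus (log2 difference 2.90) and 1, Scg3, lower (-0.50). Chgb, chromogranin B, shared with Scg2 an interval above 0 in cerebellum, with a ratio of 0.22 (0.09 to 0.35), but not in hippocampus, with -0.01 (-0.16 to 0.14). Chga, chromogranin A, was lower in knockout hippocampus at -0.53 (-0.91 to -0.15).

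Of 18 processing and release genes tested, 10 were higher in hippocampus and 3 lower, against 15.8% and 13.5% of all genes. Among the 10, Rab27b, with 5 (KO) and 13 (WT) cerebellar tags, passed the filter on low counts through hippocampus. Its call adds nothing to the tags. Cpe, which trims the cut peptides, had 6686 (KO) and 5966 (WT) tags in hippocampus and 2447 and 2476 in cerebellum. Its genotype ratio was 0.05 in hippocampus and 0.02 in cerebellum. Of the list's other most abundant genes, Rab3a, a vesicle GTPase, had a hippocampal ratio of 0.47 (0.40 to 0.54) and Ctsb, cathepsin B, of -0.28 (-0.42 to -0.15). Pcsk2, which cuts precursors, had ratios of 0.02 and 0.22 with intervals that include 0. None of the 7 granins or the 18 processing genes was called for genotype in brain by edgeR, and none had an unadjusted p under 0.05.

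Of 9 peptide-degrading enzymes tested for genotype, 0 were called (edgeR, 1 at an unadjusted p under 0.05). Ece1, endothelin-converting enzyme, met the size rule in hippocampus, with 47 (KO) and 87 (WT) tags and an interval of the log2 ratio from -1.55 to -0.47. Among 16 activity-regulated genes tested, 0 were called (1 at an unadjusted p under 0.05). Fos met the size rule in cerebellum, with 40 and 92 tags and a ratio of -1.17 (-1.74 to -0.62). In hippocampus Fos stood at 25 and 23 tags and Bdnf at 195 and 203, both with intervals that include 0, while Arc was lower at -0.63 (-0.97 to -0.28).

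**Figure D4:**
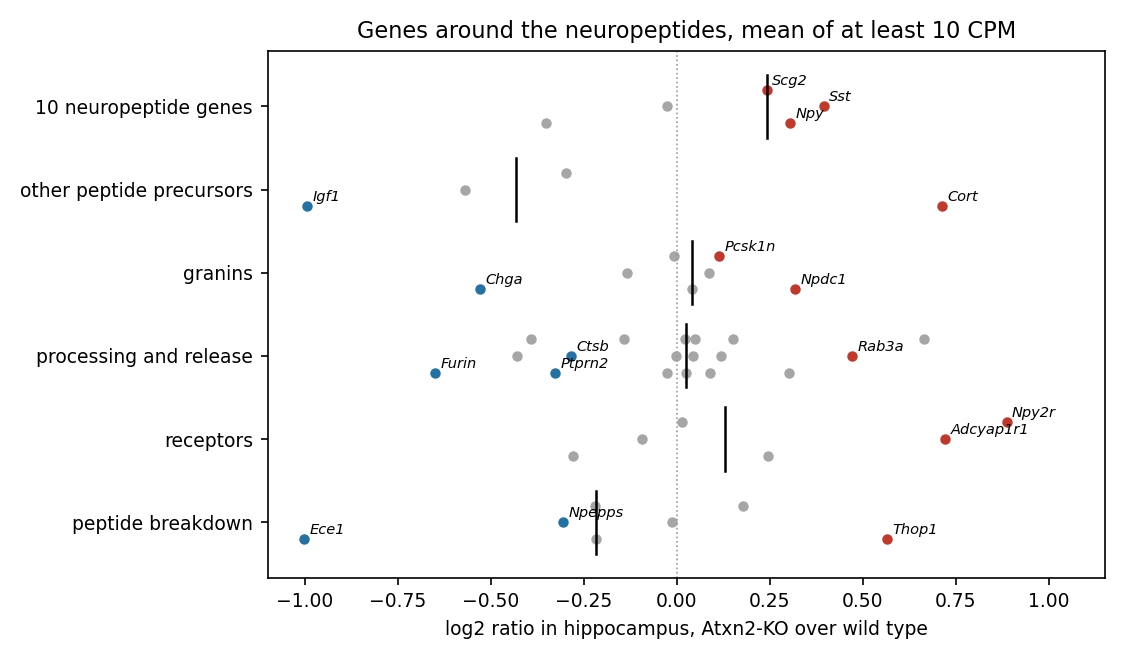
Ratio of Atxn2-KO to wild type in hippocampus, on a log2 scale, for genes with a mean of at least 10 CPM in the members and in 5 functional lists. Each point is a gene, red where its 95% counting interval lies above 0, blue where it lies below and grey otherwise, and black bars are list medians. Sst, Npy and Scg2 are red with a list median of 0.24, and the receptors Npy2r and Adcyap1r1 are the furthest right.

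Cell-type markers gave the setting of the hippocampal ratios. The 18 markers of GABA interneurons that were in the table summed to 706 (KO) and 766 (WT) CPM in hippocampus and to 3359 and 3533 in cerebellum. Most of the cerebellar sum came from Pvalb, at 2007 and 2064 CPM, and Calb2, at 402 and 422. The sums therefore do not compare interneuron content between the tissues. Gad1, which makes GABA, had a hippocampal ratio of -0.05 (-0.25 to 0.15), Calb2 0.15 (-0.18 to 0.49) and Pvalb -0.47 (-0.73 to -0.22). Of the 10 markers with at least 10 CPM there, 4 had a ratio above 0 and 6 below. The part of interneuron number or content in the ratios of Sst and Npy was not tested.

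Neocortex markers summed to 89.2 (KO) and 112 (WT) CPM in hippocampus, and striatal markers to 83.4 and 72.4. All 4 neocortex markers of at least 10 CPM in hippocampus had genotype ratios below 0 (median log2 -0.56), 1 with an interval below 0. The striatal list summed to 172.1 (KO) and 171.5 (WT) CPM in cerebellum, mostly from Ppp1r1b at 147.5 and 150.4. Its sum therefore does not measure striatal tissue. Hypothalamus markers, of which 1 of 6 was in the table, were at or near 0 in all libraries, and brainstem markers summed to 2.49 to 5.83 CPM in brain.

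Markers of some other cell types differed between the genotypes. Hepatocyte markers, 9 of 10 with tags, summed to 1362 CPM there against 292 in knockout, and to 545 against 311 CPM in cerebellum. Choroid plexus markers summed to 425 against 168 CPM in hippocampus and to 3788 against 2588 in cerebellum. Most of each sum was Ttr, at 399 (WT) and 145.5 (KO) CPM in hippocampus and 3673 and 2526 in cerebellum. Ttr also stood at 25690 and 35590 CPM in liver. The next most abundant, Folr1 and Kl, had equal tags in hippocampus, 4 and 4 and 26 and 26. In cerebellum Folr1 had 81 (WT) and 42 (KO) tags and Kl 73 and 35. The hippocampal sums therefore rest on 1 gene. Purkinje cell markers in hippocampus summed to 423 (KO) and 455 (WT) CPM, and of the 6 with at least 10 CPM, 3 had a ratio above 0 and 3 below. The intervals of 3 lay below 0 and that of 1 above. Pcp2, at 27 (KO) and 74 (WT) tags, and Car8, at 18 and 51, met the size rule. Granule neuron markers there summed to 108 and 112 CPM, and the 2 with at least 10 CPM had ratios above 0. Below that level, Cbln1 was lower in knockout, at 14 and 32 tags, as was Gabra6, at 9 and 25. The part of these markers in the ratios of Sst, Npy, Scg2 and Adcyap1 was not tested. The members themselves summed to 21.8 and 26.4 CPM in liver.

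**Figure D5:**
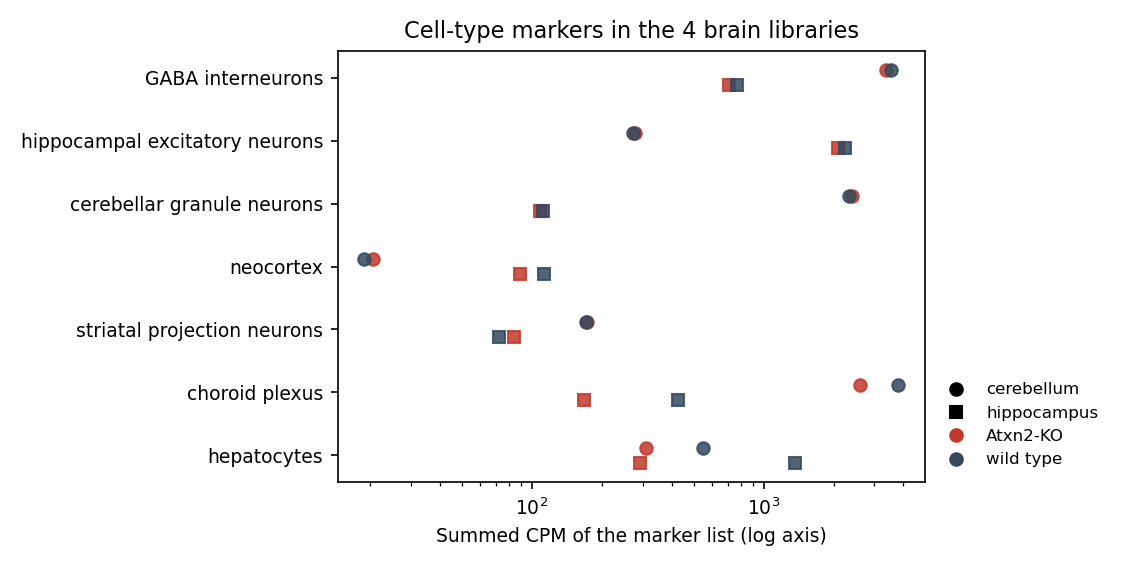
Summed CPM of 7 marker lists in the 4 brain libraries, on a log axis, with circles for cerebellum, squares for hippocampus, red for Atxn2-KO and dark grey for wild type. Interneuron markers in hippocampus lie close together at 706 and 766 CPM, whereas hepatocyte markers there differ, at 292 and 1362 CPM.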

How the data were processed

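MACE tags of 6 pooled libraries were used. Per the file headers, the authors deposited a raw tag count for each RefSeq record and each strand, with no scaling. Bases were called with CASAVA 1.8.2 and the build was mm9, per the submitters' processing notes, while the deposited table names a GRCm38 set. No aligner is named in those notes. Sense counts were summed per symbol, giving 24762 features, of which 5726 join several genes. Contig tags (16.0% to 21.3%), unmatched tags (7.21% to 8.83%) and antisense tags (7.75% to 10.5%) stayed out of library sizes.

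The comparisons used edgeR 4.0.16 (quasi-likelihood, TMM, filterByExpr, Benjamini-Hochberg at 0.05). Genotype was fitted with tissue as a block over all 6 libraries or the 4 brain libraries, and tissue over all 6 with a genotype term. Ratios within a tissue carry exact Clopper-Pearson 95% intervals, which cover counting error only, and a count of 0 was set to 3. No member ratio was formed where both counts were 3 or less. DESeq2 1.42.0, other scalings, no filter and left-out tissues were tried. The fits were tested on simulated data. The members and lists were chosen with earlier results of these data known. Genes were named from the members, the 3 most abundant of each list, genes passing a genotype test or the size rule, and each abundant member's 3 nearest profiles. Not every gene that met these terms is described. Those left out include Mbp and Prkcd, which passed a genotype test in brain, and the abundant activity genes Jun and Per1. Other list genes were named after their values were seen.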

Additional observations from a re-analysis of the deposited data

Results flagged for a closer look

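Npy was marked because its knockout-to-wild-type ratio lay below 0 in cerebellum (log2 -0.73, interval -1.17 to -0.31) and above 0 in hippocampus (0.31, interval 0.11 to 0.51). The 2 log2 ratios differ by 1.04. Each rests on 1 pooled library per genotype, and the difference was not tested.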

How the results depend on the processing

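The number of members called in each fit stayed within 1.5 times its value under every alternative run, and no called member changed direction. Counts over all genes moved more. For genotype over 3 tissues, 1 higher and 10 lower became 0 and 5 with DESeq2 size factors, 0 and 2 with DESeq2's test, 25 and 80 with no filter, and 0 and 0 with no tissue block. Leaving out a tissue gave 5 and 17 (cerebellum), 22 and 37 (hippocampus) and 18 and 92 (liver). For genotype in brain, 18 higher became 3 with DESeq2 size factors, and DESeq2's test gave 1 and 15. For hippocampus against cerebellum, 2042 and 1745 became 1150 and 785 under DESeq2's test. The members with an interval below 0 in hippocampus went from 0 to 1, Penk, with DESeq2 size factors. The causes were not tested. Genotypes were paired by tissue, as the block of the genotype fits. Within a tissue no paired analysis was possible because each group has 1 library. Leaving out Vip and Cartpt, an alternative chosen after seeing the data, took the members higher in hippocampus from 6 to 4. The median knockout-to-wild-type log2 ratio of liver features was -0.07 with TMM and 0.06 with DESeq2 size factors. Sense plus antisense counts changed no member's side of 0. Depth limits Tac1, Vip, Cartpt, Adcyap1 and Pdyn most.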
